A study of Mus musculus with 3 samples.

Results

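The interferon response genes described here are 43 genes that cells switch on, or use, when they sense foreign nucleic acid or interferon. They were chosen by name: a probe was taken when its gene name in the array files, or the RefSeq accession it carries, belongs to one of the 43 genes. This gave 65 probes of the 41174 on the arrays, and 43 of the 30338 genes named there, so that no member lacked a probe. The arrays, 3 in all and each in 2 colours, carry RNA of EpH4-PR. These are mouse mammary epithelial cells given a stably transfected progesterone receptor (PR) and then selected as clones, grown in DMEM with 10% FBS. EpH4-PR RNA was labelled with Cy5 and a commercial mouse reference RNA (Stratagene mouse standard) with Cy3 on every array, with no dye swap, so an effect of the dye and a difference in RNA cannot be told apart. Arrays of the vector control EpH4-EV were not analysed here, so every ratio sets EpH4-PR RNA against reference RNA and measures no effect of PR. Whether the 3 arrays came from separate cultures is not stated, and the tests then measure only the spread between these arrays, which may be technical.

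Interferons bind cell surface receptors and, through Jak kinases, activate a complex that holds Stat2 and Irf9, which enters the nucleus and binds a short promoter element, the interferon-stimulated response element. Many genes with this element encode proteins that bind viral RNA, block translation or hold virus particles at membranes. Epithelial cells express the receptors and a resting level of many of these genes, and the level rises when interferon is present.

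The promoters of a few members are shown because this element is what many interferon response genes share and because the array values were not used to choose it. The windows run from 250 bases before to 50 bases after the annotated start, from RefSeq on build GRCm38.p6, and 36 of the 43 members had one (not Dhx58, Mx1, Mx2, Oas2, Parp14, Usp18 or Zbp1). Capitals mark the core of the response element, which is GAAA, any 2 bases and GAAA again, or TTTC, any 2 bases and TTTC where it lies on the other strand. Isg15 (chr4:156200769-156201068, minus strand), Igtp (chr11:58199306-58199605, plus strand) and Ifit3 (chr19:34583279-34583578, plus strand) had probes called lower in EpH4-PR RNA. Ddx58 (chr4:40239776-40240075, minus strand) had the only probe called higher. Ifngr1 (chr10:19591699-19591998, plus strand) is a receptor gene that was called lower and whose window lacks the core.
Isg15: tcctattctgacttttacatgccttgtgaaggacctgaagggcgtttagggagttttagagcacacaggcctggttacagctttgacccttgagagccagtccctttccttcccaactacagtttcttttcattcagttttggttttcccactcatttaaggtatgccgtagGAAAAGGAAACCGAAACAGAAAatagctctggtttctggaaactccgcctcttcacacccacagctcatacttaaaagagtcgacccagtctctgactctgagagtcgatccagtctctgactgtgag
Igtp: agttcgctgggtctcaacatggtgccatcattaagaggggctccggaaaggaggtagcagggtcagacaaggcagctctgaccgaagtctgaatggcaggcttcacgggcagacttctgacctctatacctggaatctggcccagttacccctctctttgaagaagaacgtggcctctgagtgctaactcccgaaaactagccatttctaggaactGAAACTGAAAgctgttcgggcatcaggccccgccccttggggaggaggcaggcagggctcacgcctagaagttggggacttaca
Ifit3: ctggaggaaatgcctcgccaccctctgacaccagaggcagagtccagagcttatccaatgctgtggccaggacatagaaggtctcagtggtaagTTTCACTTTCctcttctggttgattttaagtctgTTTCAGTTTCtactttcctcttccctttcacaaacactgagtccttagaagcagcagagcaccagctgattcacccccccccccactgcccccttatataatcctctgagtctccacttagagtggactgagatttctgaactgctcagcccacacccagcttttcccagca
Ddx58: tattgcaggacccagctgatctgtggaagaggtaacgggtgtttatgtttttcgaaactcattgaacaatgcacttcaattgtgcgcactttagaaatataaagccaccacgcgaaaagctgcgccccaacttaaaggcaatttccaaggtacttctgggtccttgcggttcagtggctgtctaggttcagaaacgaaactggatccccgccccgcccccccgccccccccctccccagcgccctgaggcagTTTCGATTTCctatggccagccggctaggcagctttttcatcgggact
Ifngr1: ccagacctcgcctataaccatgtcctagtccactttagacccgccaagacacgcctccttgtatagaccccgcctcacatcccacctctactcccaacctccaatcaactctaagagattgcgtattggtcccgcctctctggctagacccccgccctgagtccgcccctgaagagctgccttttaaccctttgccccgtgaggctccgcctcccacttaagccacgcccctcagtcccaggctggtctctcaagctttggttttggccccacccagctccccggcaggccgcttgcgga
In Isg15 the core occurs 3 times in overlapping copies that begin 78, 72 and 66 bases before the start. Ifit3 has 2 copies, at 156 and 122 bases before the start, and Igtp has 1, at 34 bases before it. In Ddx58 the core begins 2 bases after the start. By count, 19 of the 36 members with a window held this core, or 52.8%, against 3.99% of the 27025 genes in the promoter table. The gamma-activated site core TTCNNNGAA, an element of the interferon gamma response, which can overlap the first motif by its GAA, was found in 13 of the 36 members, or 36.1%, against 9.55% of all genes. Among the members with a window, the response element core was present in 7 of 11 that were called lower and in 11 of 24 that were not called. Those called lower whose windows lacked it were Ifi44, Ifngr1, Irf8 and Oasl2. A match is a description of these letters and not a bound site.

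The arrays were alike in quality. The median mean-spot intensity was 93.3 to 113 in Cy5 and 108 to 141 in Cy3, the median negative control spot read 57.3 to 74.1 in Cy5 and 91.8 to 121 in Cy3, and 29603 to 30942 probes passed the scanner's test for signal well above background in Cy5. No member spot was an outlier on any array. The log2 ratios of the 65 member probes had a Pearson correlation of 0.967 to 0.979 between arrays, across probes that are not independent. Neither of the 2 probes of Pgr, the PR gene itself, was well above background in Cy5 on more than 1 array, and whether they lie inside the transfected sequence is not known here. The epithelial markers fitted the label, with 8 of 10 probes called higher than in reference RNA, among them Cdh1 (log2 ratio 4.29) and Krt7 (3.99), and 1 called lower (Krt19, -2.62).

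More of the interferon response probes read lower in the cells than in the reference than read higher, led by Ifi44, Usp18, Igtp, Oas2, Ifngr1 and Isg15, and Ddx58 was the exception at the upper end. A probe is called here when its adjusted p is under 0.05 and its log2 ratio is at least 1 either way (limma, Benjamini-Hochberg over all 41174 probes). Of the 65 member probes, 13 were called lower, 1 for each of 13 genes, and 1 was called higher. That is 20% and 1.54% of the member probes, against 3.83% and 2.26% of all probes on the arrays. The members were chosen with earlier results of these data known, so these shares describe the list and are no independent check. Among probes that passed the background test in Cy5 and in Cy3 on every array, the shares of all probes were 5.67% lower and 3.47% higher, and the members had 12 and 1 of 55. The member probes had a median log2 ratio of -0.22, against -0.01 for all probes. Of the 65, 44 lay below 0 on all 3 arrays while 15 lay above 0 on all 3. Over all 41174 probes, 14857 lay below 0 on all 3 arrays and 14595 above. Without a limit on size, 38 were below 0 with an adjusted p under 0.05 (58.5%, against 24.6% of all probes) and 12 were above 0 (18.5%, against 25.7%).

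These ratios are relative to probes of like brightness, because loess sets the typical ratio to 0 at every intensity. When each array was only centred on its median, the brightest 25% of probes had a median log2 ratio of 1.13, and the calls became 6 higher and 3 lower among the members and 7031 higher and 708 lower among all probes, against 932 higher and 1578 lower with loess. The 3 members called lower under both were Ifi44, Usp18 and Oas2. The median log2 ratio of the members was then -0.13.

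**Figure D1:**
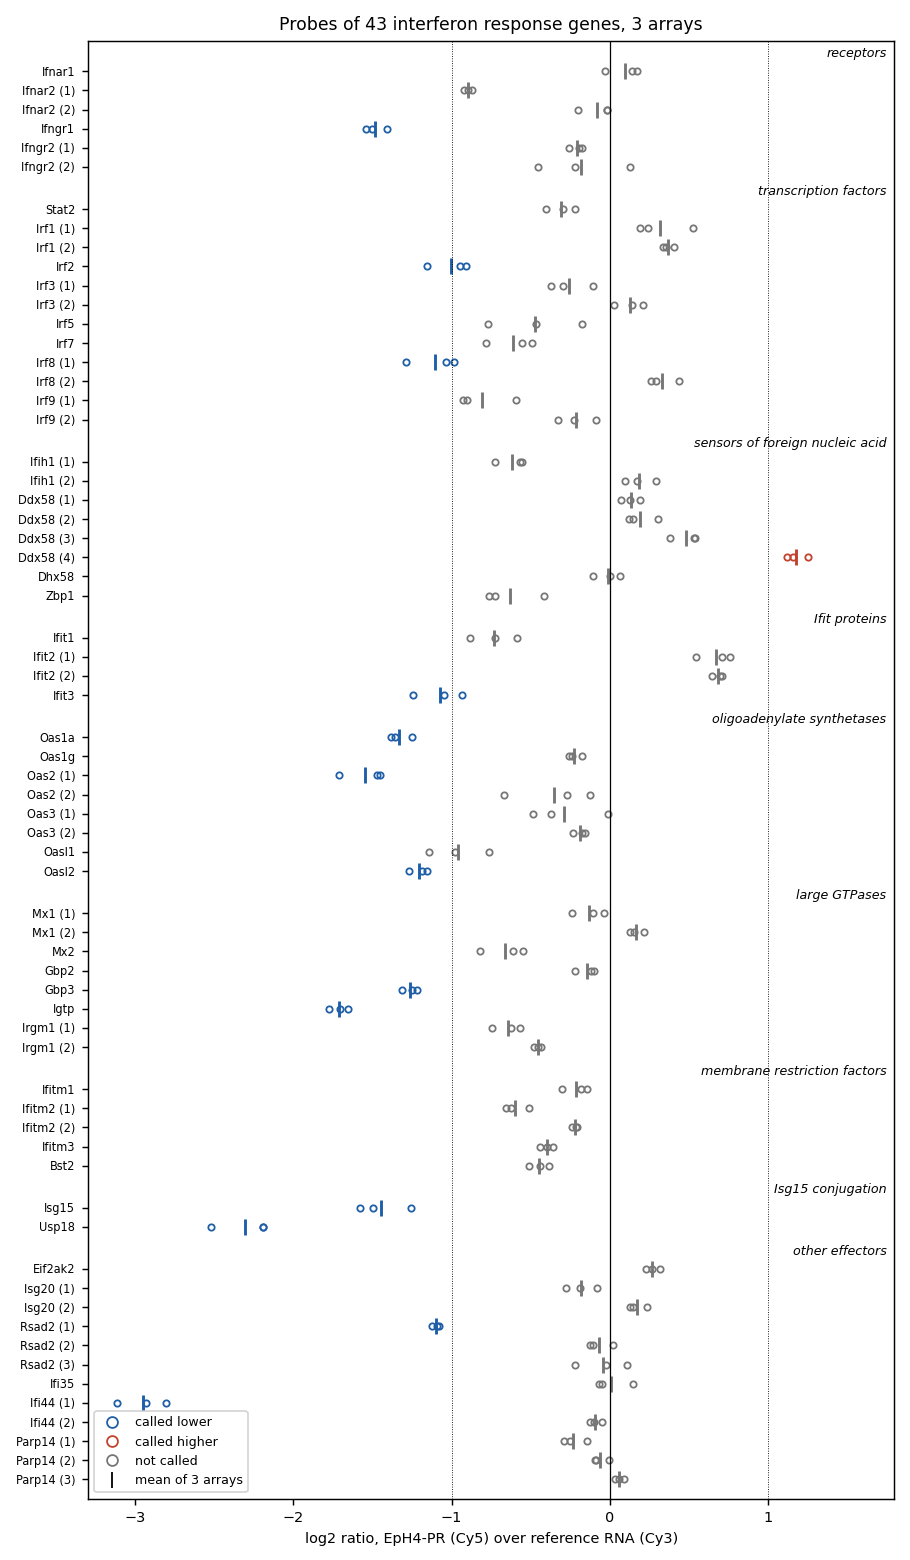
Log2 ratio of EpH4-PR (Cy5) over reference RNA (Cy3) for each of the 65 probes of the 43 genes, grouped by role; circles are the 3 arrays, bars their mean, and dotted lines a log2 ratio of -1 and 1. The 13 probes called lower lie between -2.95 and -1.004, and the 1 called higher, of Ddx58, lies at 1.18.

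Some immune cell markers were also lower in the cells. Of their 22 probes, 9 were called lower, 0 were called higher and 13 were not called, and their summed spot intensity was 2373 to 2919 in Cy5 against 4637 to 5451 in Cy3. Sums here are of raw spots and include the floor of each channel. The median negative control spot read 57.3 to 74.1 in Cy5 and 91.8 to 121 in Cy3, so the sums alone do not show a lower level. Ptprc, the pan-leukocyte surface protein, had probes at -1.40 and -0.19 on the log2 scale and another that was not well above background in Cy5 on any array. Cd3e (0.11 and -0.37) and Cd79a (0.06), of T and B cells, were not called. Of 15 fibroblast and mesenchyme probes 8 were called lower and 0 higher, with sums of 3736 to 4339 in Cy5 and 43581 to 49315 in Cy3, and of 5 endothelial probes none was called. The part of these cell types in the reference RNA in the lower interferon response ratios was not tested. In RNA of whole cultures, fewer cells that express a gene and less RNA per cell cannot be told apart.

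Among the receptors, Ifngr1, the ligand-binding chain of the interferon gamma receptor, stood apart. On the log2 scale its ratio was -1.41, -1.505 and -1.54 in array order, averaging -1.48 ± 0.07 (SD over 3 arrays, limma adjusted p = 3.43e-05). The gene is far from dim, with spot intensities of 1666, 1342 and 1463 in Cy5 and 1574, 1416 and 1530 in Cy3. The raw channels were close to each other, and under median centring the ratio was -0.14 and was not called. Ifngr2, the partner chain, had 2 probes at -0.21 ± 0.04 and -0.18 ± 0.29, the second with ratios on both sides of 0. Ifnar1, the first chain of the receptor for interferons alpha and beta, lay at 0.09 ± 0.11 with an adjusted p of 0.222. The 2 probes of Ifnar2, the second chain, disagreed, at -0.90 ± 0.03 and -0.08 ± 0.11. Raw spots of the first were brighter in Cy5, at 547, 483 and 531 against 471, 425 and 441 in Cy3. Under median centring the 2 ratios were 0.18 and 0.70. Ifnar1, Ifnar2 and Ifngr2 lie close together on the genome, with 1 other protein-coding gene among them in the gene table of assembly GRCm38.p6.

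The transcription factors were spread around smaller differences. Of 12 probes for 8 genes, 2 were called lower and none higher. Stat2, a part of the complex that binds the response element, had ratios of -0.30, -0.22 and -0.40, a mean of -0.31 ± 0.09, which became 0.29 under median centring. Irf9, which carries that complex to DNA, had a mean of -0.81 ± 0.19 for one probe and -0.21 ± 0.12 for the other. Irf7, which amplifies the response in many cells, had a ratio of -0.61 ± 0.15 on spots of 71.3 to 96.0 in Cy5.

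Irf1 and Irf2, an activator and a repressor that compete for the same element, differed in sign. Both probes of Irf1 lay above 0 on all arrays, at 0.37 ± 0.04 (adjusted p = 0.00177) and 0.32 ± 0.18 (adjusted p = 0.0229), and stayed above 0 under every alternative. The first of them was among the brighter member spots, at 3072, 2712 and 2885 in Cy5. Irf2 had ratios of -0.91, -0.95 and -1.16, a mean of -1.004 ± 0.14 (adjusted p = 0.000216), just inside the limit of 1, and it was not called without replicate 3 (-0.93), with no background correction (-0.90) or under median centring (-0.13). The 2 probes of Irf8, a factor of myeloid and B cells, gave opposite answers, with -0.98, -1.04 and -1.29 on one and 0.44, 0.26 and 0.29 on the other, so its level relative to the reference is not settled. Irf3, which acts before any interferon is made, had probes at -0.26 ± 0.14 and 0.13 ± 0.09, and Irf5 lay at -0.47 ± 0.30.

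The sensors of foreign nucleic acid held the only probe called higher. Ddx58, which encodes the RNA sensor RIG-I, had ratios of 1.12, 1.16 and 1.25 on that probe, a mean of 1.18 ± 0.07 (adjusted p = 6.06e-05), or 2.26-fold. Its Cy5 spots read 488, 514 and 435 against 162, 164 and 119 in Cy3, with no overlap between the channels. The other 3 probes of Ddx58 also lay above 0 on all arrays, at 0.13, 0.19 and 0.48, of which the last and 0.19 had an adjusted p under 0.05 (0.00134 and 0.0367). All 4 stayed above 0 under every alternative. The 2 probes of Ifih1, which encodes the related sensor Mda5, disagreed at -0.62 ± 0.10 and 0.19 ± 0.10, and the second was well above background on 1 array in either channel. Dhx58, the third of this helicase family, was not well above background in Cy5 on any array, and Zbp1, a sensor of Z-form nucleic acid, had a ratio of -0.63 ± 0.19.

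The Ifit genes, whose proteins bind foreign RNA and block its translation, differed among themselves although they lie close together on the genome. Ifit3 had ratios of -1.05, -0.94 and -1.24, a mean of -1.08 ± 0.16 (adjusted p = 0.00023). It was not called without replicate 3 (-0.99), with no background correction (-0.89) or under median centring (-0.61). Ifit1 was at -0.88, -0.72 and -0.59, a mean of -0.73 ± 0.15 (adjusted p = 0.000766). Ifit2 went the other way on both of its probes, at 0.68 ± 0.03 and 0.67 ± 0.11 (adjusted p = 0.000198 and 0.000601). The ranges over the 3 arrays of Ifit2 and of its neighbours Ifit1 and Ifit3 did not overlap, and the signs held under every alternative. The difference between these genes was not tested.

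All 8 probes of the oligoadenylate synthetases, which make the second messenger that activates RNase L, lay below 0. Oas1a had ratios of -1.38, -1.25 and -1.36, a mean of -1.33 ± 0.07 (adjusted p = 4.63e-05). Oasl2 was at -1.27, -1.16 and -1.19, a mean of -1.20 ± 0.06 (adjusted p = 5.18e-05), and its neighbour Oasl1 at -0.96 ± 0.19. One probe of Oas2 was not well above background in Cy5 on any array while the reference was on all 3, so its log2 ratio of -1.55 ± 0.14 (adjusted p = 6.93e-05) has no measured Cy5 level behind it, and it was -1.25 with no background correction. Its other probe lay at -0.35 ± 0.28. Oas1g, next to Oas1a, was also not well above background in Cy5 on any array, with a log2 ratio of -0.22 ± 0.04, and Oas3 had probes at -0.29 ± 0.25 and -0.19 ± 0.04. Oas1a and Oas1g are close copies, and which of them each probe binds was not analysed here. Only 4 of the 8 probes were well above background in Cy5 on all arrays, against 8 of 8 in Cy3.

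The large GTPases act at different places, Mx proteins on viral nucleocapsids and the Gbp and Irg proteins on the vacuoles of parasites and bacteria. Igtp had ratios of -1.71, -1.66 and -1.78, a mean of -1.71 ± 0.06 (adjusted p = 2.58e-05), and Gbp3 of -1.25, -1.22 and -1.32, a mean of -1.26 ± 0.05 (adjusted p = 4.26e-05). These were among the tightest values of the called genes, and the SD was far smaller than the ratio. Irgm1 lay at -0.65 ± 0.09 and -0.46 ± 0.02 on its 2 probes, both of which turned positive under median centring (0.27 and 0.31). Gbp2, close to Gbp3 on the genome with 1 protein-coding gene between them, lay at -0.15 ± 0.07. Mx2 had a ratio of -0.66 ± 0.14. One Mx1 probe lay at -0.13 ± 0.10, and the other was not well above background in either channel on any array.

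The membrane restriction factors included the brightest EpH4-PR spots of any member. Ifitm3, which blocks virus entry in endosomes, read 3417, 3298 and 3643 in Cy5 and 1600, 1546 and 1618 in Cy3. Its log2 ratio after loess was -0.44, -0.40 and -0.36, a mean of -0.40 ± 0.04 (adjusted p = 0.00138), but 1.001 under median centring, so its direction depends on how the dyes are balanced. The same turn was seen for Ifitm1 (-0.21 and 0.62), both probes of Ifitm2 (-0.22 and 1.02, -0.60 and 0.38) and Bst2 (-0.45 and 0.92), the tetherin that holds budding virus at the cell surface. All 5 probes passed the scanner's background test in Cy5 and Cy3 on each array, so each gave signal in EpH4-PR RNA. That test does not depend on the processing used here. Ifitm1, Ifitm2 and Ifitm3 are close copies, and which of them each probe binds was not analysed here.

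The 2 genes of Isg15 conjugation were both called lower. Isg15 encodes a small protein that is joined to others much as ubiquitin is, and its spots read 142, 137 and 120 in Cy5 against 272, 237 and 226 in Cy3. The log2 ratio was -1.499, -1.26 and -1.58, a mean of -1.45 ± 0.17 (adjusted p = 0.000111), or 2.72-fold lower. Usp18, the protease that removes Isg15 and damps signalling at Ifnar2, read 116, 116 and 101 in Cy5 against 336, 331 and 333 in Cy3. Its ratio was -2.19, -2.19 and -2.52, a mean of -2.30 ± 0.19 (adjusted p = 4.15e-05), or 4.94-fold lower. In both genes the channels did not overlap. Their floors differ, however, with the median negative control spot at 57.3 to 74.1 in Cy5 and 91.8 to 121 in Cy3, so raw separation alone does not show a lower level.

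**Figure D2:**
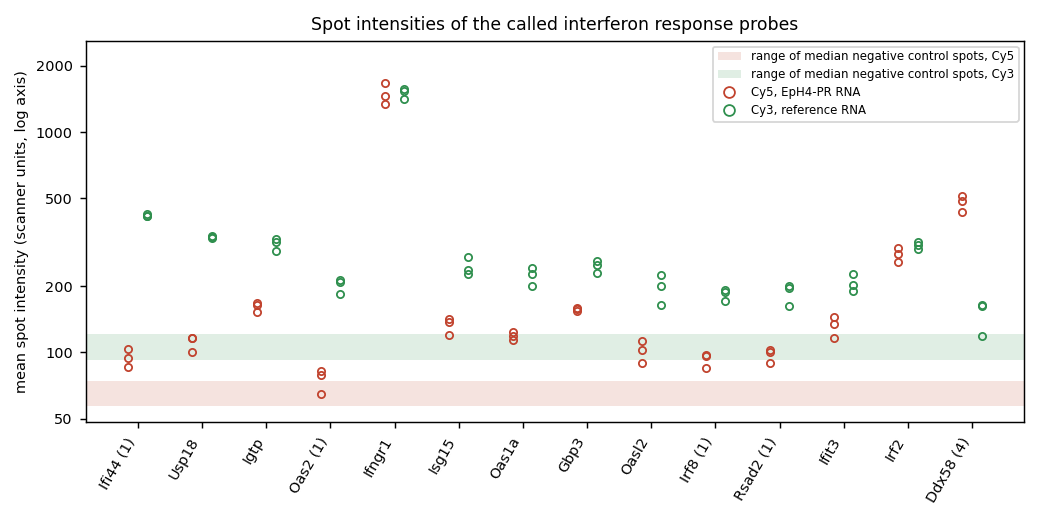
Mean spot intensity in scanner units (log axis) of the 14 called probes on the 3 arrays, Cy5 (EpH4-PR RNA) and Cy3 (reference RNA), with bands for the median negative control spot; spots are shown before background correction. Most of the probes called lower read between 64.8 and 167 in Cy5, not far above the band of 57.3 to 74.1, while Ifngr1 and Irf2 were brighter.

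Among the other effectors, Ifi44, a gene of the late interferon response, had the lowest ratio of all member probes. It read 94.2, 104 and 85.4 in Cy5 against 424, 415 and 415 in Cy3, with ratios of -2.94, -2.80 and -3.11, a mean of -2.95 ± 0.16 (adjusted p = 2.1e-05), or 7.73-fold lower. Its second probe, matched by gene name alone, was not well above background in Cy5 and lay at -0.09 ± 0.04. Rsad2, which encodes viperin, had 1 of 3 probes called, at -1.10 ± 0.02 (adjusted p = 5.05e-05), while the others lay at -0.07 ± 0.08 and -0.04 ± 0.17. Eif2ak2, which encodes the RNA-activated kinase PKR, was above 0 on all arrays, at 0.27 ± 0.04 (adjusted p = 0.00578). Isg20, an exonuclease, had probes at -0.18 ± 0.10 and 0.17 ± 0.06, Ifi35 lay at 0.01 ± 0.12 (adjusted p = 0.894), and the 3 probes of Parp14 lay between -0.23 and 0.06. The Parp14 probe at 0.06 was not well above background in Cy5 on any array.

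Of the 18 genes with several probes, 13 had all probes in 1 class of call, 5 had calls that differed (Ddx58, Ifi44, Irf8, Oas2 and Rsad2), and none had probes called in opposite directions. In 6 of the 18 the probes had mean ratios on both sides of 0. Of the lower calls, 4 rest on 1 probe that another probe of the gene does not share, and the remaining 9 belong to genes with a single probe.

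**Figure D3:**
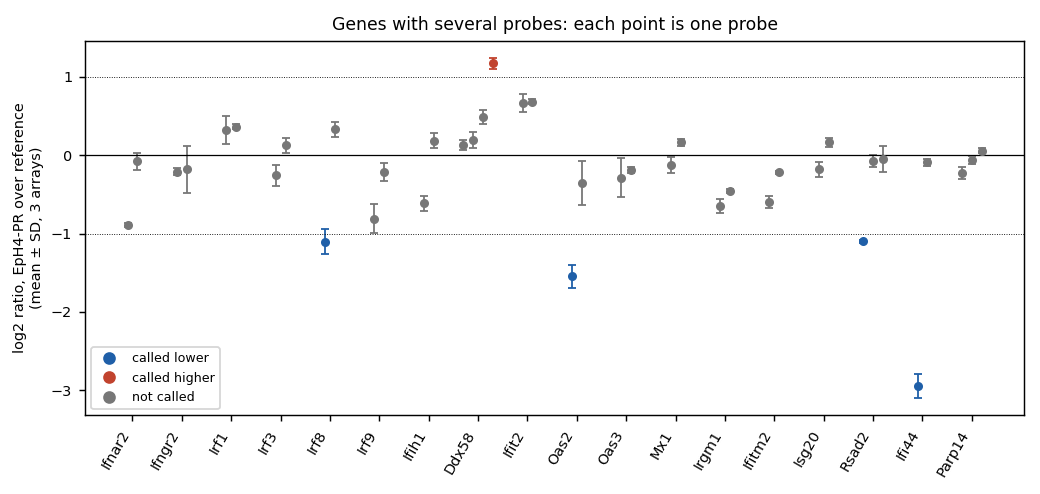
Log2 ratio over reference RNA of each probe (mean ± SD over 3 arrays) for the 18 genes with more than 1 probe; colours give the call, and dotted lines mark -1 and 1. The largest gaps are those of Ifi44 (-2.95 and -0.09) and Irf8 (-1.10 and 0.33), while both Irf1 probes and both Ifit2 probes lie together above 0.

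Genes of the same pathway outside the 43 had a like share of calls. Of 54 such genes listed, 49 had a probe (73 probes), of which 14 probes of 13 genes were called lower and 2 probes of 2 genes higher. That is 19.2% and 2.74%, against 3.83% and 2.26% of all probes. The list was chosen with earlier results of these data known and holds close relatives of members, so it is no independent check. The lowest, at -3.26, was a probe matched to Ifi27 by gene name alone. Another probe, which the arrays name differently and RefSeq gives as Ifi27, lay at -1.74. Both are counted here as Ifi27, and whether they read the same gene was not analysed. Sp110 (-2.35) and Sp100 (-1.57), which encode nuclear body proteins, Lgals3bp (-2.23), Ifi203 (-2.09), Ifi205 (-1.15), Ifi202b (just inside the limit), Il10rb (-1.09) and Ptpn6 (-1.65) were also called lower. Other probes of these genes did not share the call, at 0.05 for Ptpn6, 0.01 for Il10rb, -0.26 for Ifi203, -0.07 and -0.10 for Ifi205 and -0.25 and -0.24 for Sp100. Of these, the Il10rb probe and the Ifi205 probe at -0.07 were not well above background in either channel on any array. Their ratios near 0 therefore do not speak to the calls. Raw spots of the called Il10rb probe read 844, 755 and 821 in Cy5 against 738, 674 and 696 in Cy3. Those of Ifi202b read 1789, 1657 and 1892 in Cy5 against 1327, 1261 and 1291 in Cy3. Both were brighter in Cy5, and their ratios are lower only relative to probes of like brightness. Socs3, a feedback inhibitor of Jak kinases, was at -1.87, while Socs1 lay at -0.22 with an adjusted p of 0.075. Irf4 and Iigp1 were called lower too, but neither was well above background in Cy5 on any array. Uba7, the enzyme that activates Isg15 for conjugation, was lower as Isg15 itself was, at -1.70 ± 0.04, while Ube2l6, the next enzyme of that chain, lay at 0.04 ± 0.10.

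Among the higher calls in that list was Samhd1 (1.18, and 0.75 on an uncalled probe), a nucleotide hydrolase that limits viruses. The uncalled Samhd1 probe was not well above background in Cy3 on any array. Upstream of the response, Jak1 lay at -0.79 ± 0.11 and Tyk2 at 0.03 ± 0.08. Raw spots of Jak1 were brighter in Cy5, at 747, 758 and 712 against 569, 533 and 544 in Cy3, so its ratio too is relative to probes of like brightness. The interferon genes gave little signal in either RNA. The 7 probes of 6 ligand genes (Ifna2, Ifna4, Ifnb1, Ifne, Ifng and Ifnk) had ratios between -0.10 and 0.14, 0 of them were called or had an adjusted p under 0.05, and 1 was well above background in Cy5 on all arrays.

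**Figure D4:**
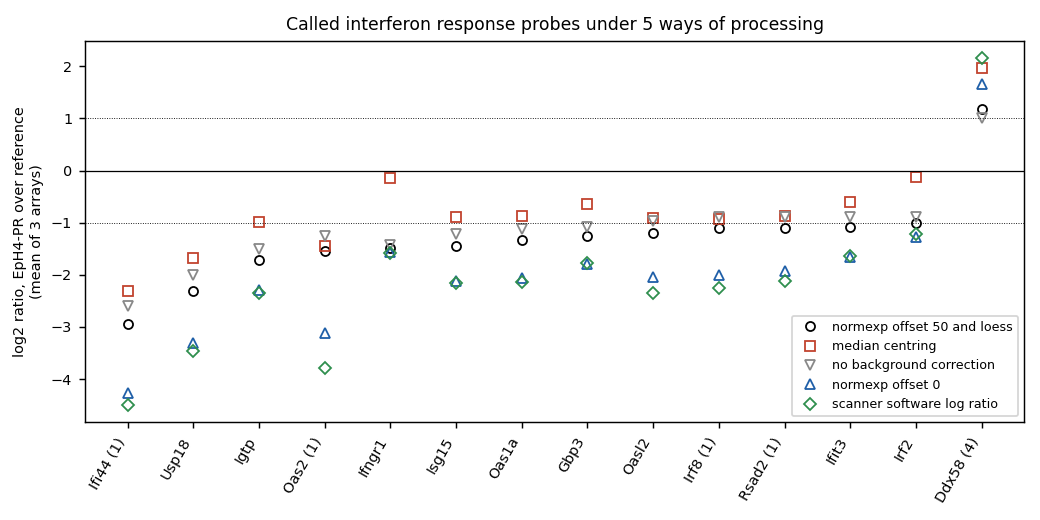
Mean log2 ratio over reference RNA of the 14 called probes under 5 ways of processing; each column is 1 probe, and dotted lines mark -1 and 1. Every probe keeps its sign, Ifi44 ranges from -4.50 to -2.31 and Usp18 from -3.46 to -1.68, and Ifngr1 and Irf2 come close to 0 under median centring.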

How the data were processed

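Per the labels, EpH4-PR RNA (Cy5) and reference RNA (Cy3) were hybridised to 3 two-colour Agilent whole mouse genome arrays. The authors deposited scanner output of Agilent Feature Extraction 8.1.1.1: intensities per spot and channel, local background, and a log10 ratio made after dye normalization. They also deposited fold changes and p-values for their own comparison, which were not used. Here, mean spot intensities were corrected with limma's normexp (offset 50), normalized by loess within arrays, freed of control and outlier spots (150, 18 and 3), and averaged per probe. Ratios were tested two-sided against 0 with lmFit and eBayes (R 4.3.3, limma 3.58.1, Benjamini-Hochberg over 41174 probes). The fit and the calls were tried on simulated ratios, while background correction, normalization and the removal of spots were not. Current symbols came from RefSeq accessions (assembly GRCm38.p6, 21445 of 23705 matched), which named 56 member probes. The other 9 were named by the file. All 43 members are named, and other pathway genes where called or as parts of the chain described, except some that are not reported here. A probe not well above background in a channel on any array has no measured level there. No fold is given for it, and its log2 ratio, where printed, is not a measured difference. The number of arrays limits precision. Members and lists were chosen with earlier results of these data known.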

Additional observations from a re-analysis of the deposited data

How the results depend on the processing

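Member probes called higher and lower (1 and 13) became 7 and 21 with normexp offset 0, 6 and 23 when the log ratio of the scanner was taken, 6 and 3 under median centring, and 8 were lower with no background correction, without Ifit3 (-0.89), Irf2 (-0.90), Irf8 (-0.89), Oasl2 (-0.97) and Rsad2 (-0.89). Pathway list probes called higher and lower (2 and 14) became 4 and 20 with normexp offset 0, 2 and 12 with no background correction, 4 and 23 with the scanner log ratio and 5 and 8 under median centring. Calls over all probes moved as well, from 2.26% higher and 3.83% lower to 7.59% and 9.48% with normexp offset 0. They were 8.78% and 9.44% with the scanner log ratio, 17.1% and 1.72% under median centring, and 1.66% and 3.16% with no background correction. The median member ratio (-0.22) was -0.44 with normexp offset 0, -0.18 with no background correction, -0.49 with the scanner log ratio, -0.13 under median centring and -0.27 with dim probes left out. What lies behind these shifts was not tested. Without single replicates, 11 to 14 member probes were called lower and 1 higher.

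Median centring reversed 19 of 65 probes: Mx1 (-0.0204), Ifih1 (-0.0206), Parp14 (-0.16 and 0.68), Ifngr2 (0.13 and 0.92), Ifnar2 (0.18 and 0.70), Irgm1 (0.27 and 0.31), Stat2 (0.29), Ifitm2 (0.38 and 1.02), Gbp2 (0.38), Ifitm1 (0.62), Isg20 (0.87), Irf3 (0.89), Bst2 (0.92) and Ifitm3 (1.001). Probes near 0 also reversed: Dhx58 with normexp offset 0 (0.0229), Parp14 (-0.0122), Ifi35 (-0.0586) and Rsad2 (0.13) with the scanner log ratio, and, without single replicates, Ifi35 (-0.0585 to 0.0486), Dhx58 (-0.0522 to 0.0329) and Rsad2 (-0.120 to 0.0440). Scale normalization between arrays, kept outlier spots, an intensity trend and the methods' t-test changed no member call, and the median spot intensity put Irf2 just short of the limit. No paired analysis was possible because the arrays form 1 group. Each slide held 1 array, so no slide block was run.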
